A study of Mus musculus with 6 samples.

Results

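The tumour suppressor p53 and 9 of its transcriptional targets (Cdkn1a, Gadd45a, Mdm2, Ccng1, Trp53inp1, Bbc3, Phlda3, Btg2 and Bax) were followed in liver RNA of mice with sickle cell disease. These 10 genes were taken by symbol from count tables of 24421 genes. The list was selected on results of these same libraries, in which higher Cdkn1a and Gadd45a counts in SS were already known, so their differences between genotypes are given as descriptions. Where a call from the fit over all genes is named for a member, it was made on the counts that led to its selection and is not independent evidence. All 10 were in the tables and all 10 passed the filter on low counts. The liver libraries came from mice of the Townes line at 7 months of age. Both genotypes carried human alpha-globin in place of the mouse genes (Hbatm1(HBA)Tow). AS mice, the controls, carried the sickle allele Hbbtm2(HBG1,HBB*)Tow and the normal allele Hbbtm3(HBG1,HBB)Tow, while SS mice carried Hbbtm2(HBG1,HBB*)Tow alone. Each genotype had 3 libraries, and the labels do not say whether these are separate animals, so errors measure only the spread between libraries.

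p53 is a transcription factor that is held at a low protein level by the ubiquitin ligase Mdm2 and is stabilised when DNA is damaged or growth signals are abnormal. Because this control acts mainly on the protein, Trp53 mRNA is a poor guide to p53 activity, and the joint behaviour of target genes is usually read instead. Targets either stop the cell cycle, start apoptosis, repair DNA or feed back on p53, and several of them, among them Cdkn1a, Gadd45a and Btg2, also respond to other stress and growth signals. In liver, Cdkn1a is known for holding hepatocytes out of division after injury.

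Gene reads per library ran from 6670011 to 13700194, and 12622 genes were tested. Values are CPM, counts scaled to library size with TMM factors. AS replicates 2 and 3 resembled each other far more than any other pair (chi-square of 4.05 per gene against 29.2 to 170), which is still above sampling noise, and they were kept as separate libraries. AS replicate 1 and SS replicate 3 lay at opposite ends of the first principal component. In SS replicate 1, 78.5% of alignment records were assigned to no gene for any reason, against 66.6% to 69.7% in the other libraries. The share that overlapped no gene was 53.9% in SS replicate 1, against 40.7% to 43.8% in the others. Hepatocyte markers, Alb among them, were high in every library, with a summed level of 77918 to 135598 CPM.

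Upstream sequence of 3 members is shown. Cdkn1a and Gadd45a were the members highest in SS relative to AS. Ccng1 has a letter match to the p53 consensus as close as that of Cdkn1a, and its levels overlapped between genotypes. The sequences are from RefSeq (GRCm38.p6, the same build as mm10), where 9 of the 10 members had an upstream window, Trp53inp1 being the exception. Stretches run 5′ to 3′ on the gene's strand and end before the first base that GENCODE annotates as transcribed. Positions are counted from the RefSeq start. Capitals mark p53 consensus decamers (also adjoining pairs of decamers with at most 1 mismatch of 20 letters), the GC box GGGCGG, the CCAAT box and the octamer ATTTGCAT, all searched on both strands. A pair was counted only where the core letters C and G of each decamer were kept. In Cdkn1a, chr17:29090729-29090975 on the plus strand, a single decamer comes first and the decamer pair follows:
Cdkn1a: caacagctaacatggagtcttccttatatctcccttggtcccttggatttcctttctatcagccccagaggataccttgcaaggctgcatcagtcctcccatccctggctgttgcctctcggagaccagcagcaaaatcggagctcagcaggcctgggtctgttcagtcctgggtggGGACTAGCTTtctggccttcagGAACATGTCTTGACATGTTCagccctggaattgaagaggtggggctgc
In Ccng1, chr11:40755312-40755536 on the minus strand, the capitals are a CCAAT box, a decamer pair and the other two CCAAT boxes, the last of them read on the opposite strand:
Ccng1: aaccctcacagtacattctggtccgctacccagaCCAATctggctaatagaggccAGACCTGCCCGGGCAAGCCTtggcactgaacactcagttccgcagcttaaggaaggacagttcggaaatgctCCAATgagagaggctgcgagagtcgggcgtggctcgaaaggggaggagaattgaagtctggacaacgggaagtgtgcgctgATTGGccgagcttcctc
In Gadd45a, chr6:67037458-67037657 on the minus strand, they are a GC box, an octamer, a CCAAT box and a second octamer:
Gadd45a: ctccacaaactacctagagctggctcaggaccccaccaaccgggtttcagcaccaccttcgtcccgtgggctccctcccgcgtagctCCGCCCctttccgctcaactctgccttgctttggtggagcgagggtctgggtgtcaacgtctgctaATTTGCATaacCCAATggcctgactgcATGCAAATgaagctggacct

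The pair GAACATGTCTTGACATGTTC of Cdkn1a starts 51 bases before the upstream of its 2 RefSeq starts and 2841 bases before the downstream one. An adjoining pair of decamers with at most 1 mismatch, outside the core letters, was found in 19 of 32851 upstream windows of 250 bases (0.0578%). No member other than Cdkn1a and Ccng1 held such a pair. A single exact decamer was present in 7.13% of windows. Among the members it was found for Cdkn1a, Ccng1, Mdm2, Bax, Trp53 and Gadd45a, the last within a stretch that GENCODE annotates as transcribed and that is not shown. GGGCGG was found in 32.7% of all windows, CCAAT in 33.8% and ATTTGCAT in 1.6%, and Gadd45a was the member whose window held the octamer. Sequence outside these windows, introns included, and pairs with bases between the decamers were not searched. A member without a match here is therefore not shown to lack a p53 site. These matches describe the letters of the windows and say nothing about p53 binding in these livers.

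The p53 gene itself did not separate the genotypes, and its main inhibitor did so narrowly. Trp53 (chromosome 11, 69580359 to 69591873, mm10) stood at 18.4, 18.5 and 23.6 CPM in AS replicates 1, 2 and 3 and at 22.7, 23.4 and 15.8 CPM in SS. The groups overlapped, with the lowest value in SS replicate 3, and the log2 difference from AS to SS was 0.03 (SE 0.276). Mdm2 (chromosome 10, 117688875 to 117710758), the ligase that p53 induces as its own brake, stood at 18.9, 25.8 and 23.8 CPM in AS and 42.0, 26.9 and 28.3 CPM in SS. All SS values lay above the AS values, although the gap between SS replicate 2 and AS replicate 2 was about 1 CPM. The log2 difference of Mdm2 was 0.50 (SE 0.278, 95% interval -0.11 to 1.12), and it was 0.27 without SS replicate 1.

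Cdkn1a and Gadd45a, which stop the cell cycle, were the members with the widest separation. Cdkn1a (chromosome 17, 29090976 to 29100727) encodes p21, an inhibitor of cyclin-dependent kinases. Its levels were 13.9, 5.80 and 4.01 CPM in AS, from 121, 36 and 49 reads, and 37.6, 42.9 and 51.2 CPM in SS, from 285, 592 and 654 reads. The lowest SS library was more than 2-fold above the highest AS library, AS replicate 1. The mean went from 7.91 ± 5.29 to 43.9 ± 6.84 CPM (SD, n = 3), 5.56-fold in the fit, or 2.47 on the log2 scale (SE 0.431). Without AS replicate 1 the log2 difference was 3.17.

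Gadd45a (chromosome 6, 67035096 to 67037457) encodes a small stress sensor protein that binds Pcna and acts at the G2 checkpoint. It stood at 5.30, 9.50 and 6.95 CPM in AS and at 16.4, 33.6 and 29.9 CPM in SS. SS replicate 1 was the lowest SS library and still lay above every AS library. The mean went from 7.25 ± 2.12 to 26.6 ± 9.09 CPM (SD, n = 3), 3.70-fold in the fit (log2 difference 1.89, SE 0.362). The noncoding gene E230016M11Rik overlaps 337 exonic bases of Gadd45a on the other strand, and no strand setting is given for the counting. E230016M11Rik itself held 93 reads in AS and 228 in SS, fewer than the 190 and 970 of Gadd45a. Overlaps also exist for Cdkn1a (273 exonic bases with AC167363.2 on the other strand) and Bax (192 with Gm45808 on the same strand). The effect of these overlaps on the counts was not tested.

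Of the 10 members, edgeR's quasi-likelihood fit over all genes called 2 higher in SS at a Benjamini-Hochberg adjusted p under 0.05, Cdkn1a and Gadd45a, and 0 lower. Over all genes tested, 0.967% were called, 0.911% higher and 0.0555% lower. SS values lay wholly above AS values in 3 members, those 2 and Mdm2, and wholly below in 0, against 12.1% and 9.04% of all genes tested. Since the members were proposed from this comparison, nothing is read from these counts.

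**Figure D1:**
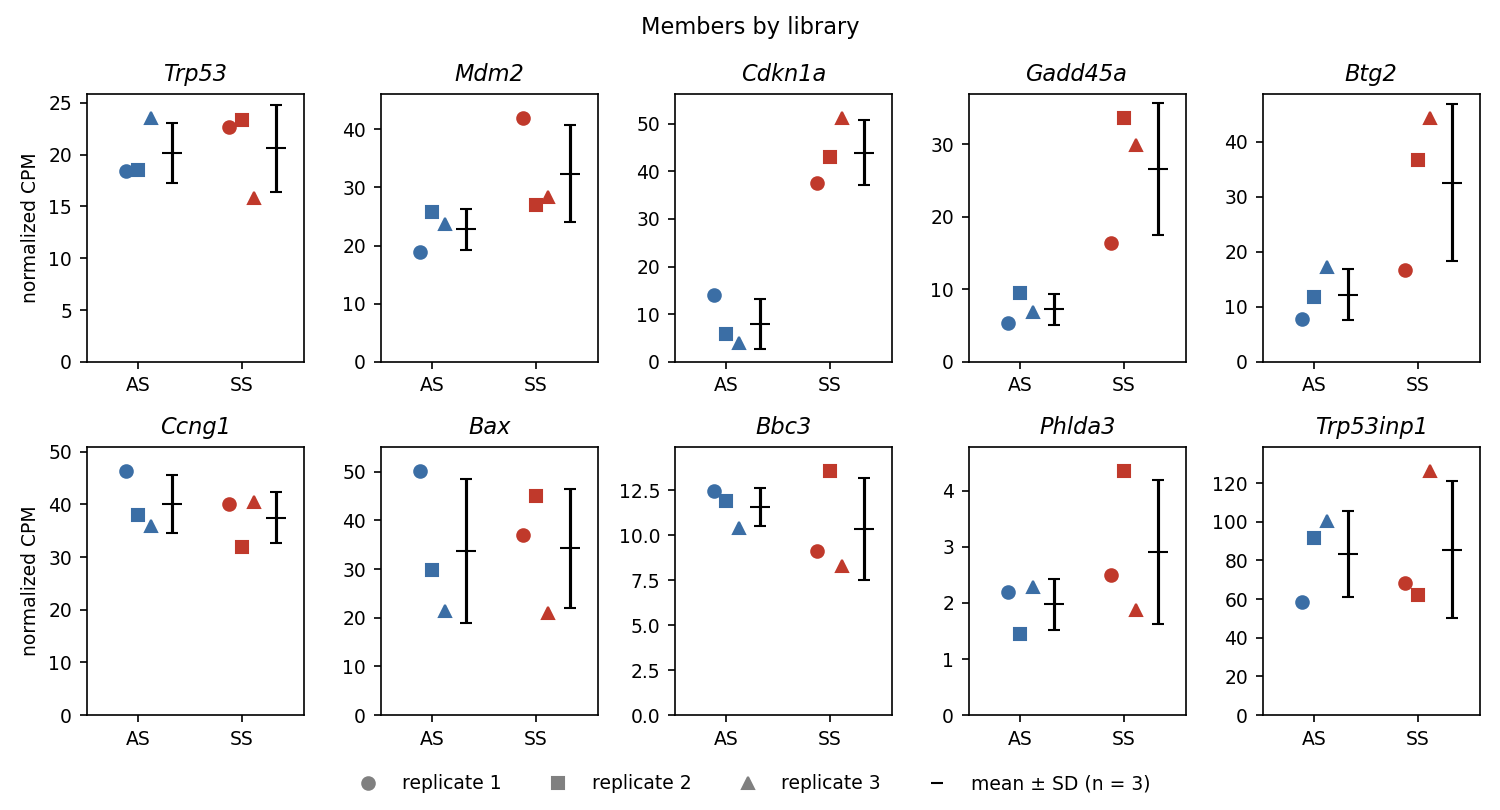
Normalized CPM (vertical axes, starting at 0) of the 10 members in each AS (blue) and SS (red) library, with marker shape for the replicate number and the mean ± SD of 3 libraries beside the points. SS points of Cdkn1a (37.6 to 51.2 CPM) and Gadd45a (16.4 to 33.6 CPM) lie above all AS points, while Trp53, Ccng1 and Bax overlap.

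Btg2 and Ccng1, the other members that act on the cell cycle, did not share one pattern. Btg2 (chromosome 1, 134075170 to 134079120), an antiproliferative cofactor that is also an immediate early gene, stood at 7.83, 11.8 and 17.2 CPM in AS and 16.8, 36.7 and 44.4 CPM in SS. SS replicate 1 fell just below AS replicate 3, so the groups overlapped. The log2 difference was 1.41 (SE 0.407, 95% interval 0.51 to 2.31), and Btg2 was not called over all genes. Ccng1 (chromosome 11, 40748552 to 40755311) encodes cyclin G, a target that helps Mdm2 act on p53. Its levels of 46.3, 38.0 and 35.8 CPM in AS and 40.1, 31.8 and 40.5 CPM in SS overlapped. The log2 difference was -0.10 (SE 0.241, 95% interval -0.63 to 0.44), which leaves room for a modest difference in either direction.

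The apoptosis members overlapped between genotypes. Bax (chromosome 7, 45461697 to 45466898), the pore-forming protein of the mitochondrial outer membrane, stood at 50.1, 29.8 and 21.3 CPM in AS and 36.9, 45.0 and 20.9 CPM in SS. The spread within each genotype exceeded the log2 difference of 0.02 (SE 0.373), which was 0.69 (SE 0.227) without AS replicate 1 and SS replicate 3. Bbc3 (chromosome 7, 16308393 to 16318205), which encodes the BH3-only protein PUMA, lay between 10.4 and 12.4 CPM in AS and between 8.29 and 13.6 CPM in SS (log2 difference -0.16, SE 0.317). Neither the effector Bax nor its activator Bbc3 separated the genotypes.

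Phlda3 (chromosome 1, 135766119 to 135769136), a repressor of Akt, was the least abundant member by count, with 9 to 60 reads per library. It stood at 2.19, 1.45 and 2.29 CPM in AS and 2.51, 4.35 and 1.88 CPM in SS, a log2 difference of 0.55 (SE 0.560) that was 0.12 without SS replicate 2. Trp53inp1 (chromosome 4, 11156431 to 11174379), a stress protein of the nucleus and of autophagy, stood at 58.4, 91.5 and 101 CPM in AS and 68.6, 62.1 and 126 CPM in SS. Its log2 difference was 0.04 (SE 0.327), was -0.36 without SS replicate 3, and was -0.56 without SS replicate 3 and AS replicate 1. SS replicate 3 also held the highest values of the p53 targets Lpin1, a phosphatidate phosphatase (628 CPM, against 67.5 to 200 CPM in the other 5 libraries), and Ddit4, an inhibitor of mTOR (153 CPM against 28.4 to 59.9 CPM), both picked out after their values were seen.

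Levels were compared between genes per kilobase of exon, as RPKM, the CPM divided by the GENCODE exon length. In AS, Bax was highest at 21.4 ± 9.38 RPKM, followed by Trp53inp1 (12.9 ± 3.43 RPKM) and Ccng1 (11.4 ± 1.57 RPKM). Bbc3, Trp53, Mdm2, Btg2 and Gadd45a followed at means of 4.11 to 5.45 RPKM, neighbours that did not differ beyond their SDs, then Cdkn1a at 2.23 ± 1.49 RPKM and Phlda3 at 1.27 ± 0.294 RPKM. In SS the order of Bax (21.7 ± 7.78 RPKM) and Phlda3 (1.87 ± 0.824 RPKM) as highest and lowest was the same. Gadd45a (15.1 ± 5.15 RPKM), Cdkn1a (12.4 ± 1.92 RPKM) and Btg2 (11.9 ± 5.20 RPKM) then stood at the level of Trp53inp1 (13.2 ± 5.45 RPKM) and Ccng1 (10.7 ± 1.39 RPKM), within their SDs. By mean RPKM Cdkn1a thus stood next to last among the members in AS, although in AS replicate 1 its 3.92 RPKM was above Mdm2, Gadd45a, Btg2 and Phlda3. In SS its mean was above those of Btg2 and Ccng1.

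The other tested genes listed with Cdkn1a showed smaller differences, apart from the phosphatase Cdkn3. Of 8 genes for CDK inhibitors and related phosphatases, 6 were tested and 2 were called higher, Cdkn1a and Cdkn3. Cdkn1b and Cdkn1c, the other genes of the Cip/Kip family, had log2 differences of 0.41 (SE 0.295) and 0.48 (SE 0.465) and were not called (edgeR adjusted p = 0.581 and 0.691). Cdkn2c, an inhibitor of Cdk4 and Cdk6, had a log2 difference of 0.98 (SE 0.341, edgeR adjusted p = 0.266), with all SS libraries above all AS libraries. Cdkn3, a phosphatase of Cdk1 and Cdk2 that is made in dividing cells, was all but unread in AS, with 2 reads in the 3 libraries together against 169 in SS (edgeR adjusted p = 0.0110). Scaled for library size, the SS to AS ratio was 67.1, and counting error alone puts it between 18.3 and 559 (95% interval). The call of Cdkn3 ended without AS replicate 1 (adjusted p = 0.0568 in edgeR), without AS replicate 3 (0.0632) and in limma-voom (0.0574). Cdkn2a and Cdkn2b were too low to test.

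In the Gadd45 family, Gadd45g was higher in every SS library (75.1, 101 and 82.8 CPM) than in any AS library (37.8, 55.7 and 56.3 CPM). Its log2 difference of 0.79 (SE 0.254) did not pass the test over all genes (edgeR adjusted p = 0.229). Gadd45b overlapped between genotypes, with a log2 difference of 0.43 (SE 0.549, edgeR adjusted p = 0.764) that was 0.08 without AS replicate 2 and 1.16 without AS replicate 1.

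Around Bax and Bbc3, 0 of the 16 tested BCL2 family genes were called by edgeR, DESeq2 or limma-voom, with 4 higher and 1 lower at an unadjusted p under 0.05. The other pore-forming genes Bak1 (log2 difference 0.40, SE 0.371) and Bok (0.35, SE 0.358) overlapped between genotypes. Bcl2l1, which encodes the survival protein BCL-XL, had the lowest p of the family, with a log2 difference of 0.80 (SE 0.273, edgeR adjusted p = 0.257). It stood at 35.9, 29.3 and 26.7 CPM in AS and 39.5, 52.0 and 68.3 CPM in SS. Among other relatives of members, the 7 tested had 0 calls in edgeR and in limma-voom (1 lower at an unadjusted p under 0.05), and Phlda1 had the lowest p, at 139, 95.8 and 74.6 CPM in AS and 50.3, 43.9 and 63.2 CPM in SS. Its log2 difference was -0.98 with an SE of 0.286, and the adjusted p was 0.176 in edgeR and 0.0440 in DESeq2.

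Beyond the 10 members, 53 further p53 regulators and targets were listed by role, of which 48 were tested. Of these, 1 was called higher by edgeR and DESeq2, limma-voom called 0, and 0 were called lower by any of the 3 tools. At an unadjusted p under 0.05, 4 were higher (Apaf1, Pmaip1 and Tnfrsf10b among them) and 3 lower (Perp, Dcxr and Gls2), against 9.12% and 3.58% of all genes tested. Their median log2 difference was 0.20, beside 0.08 over all genes tested.

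The regulators other than Trp53 and Mdm2 had 0 of 12 tested called by edgeR, DESeq2 or limma-voom, and 0 at an unadjusted p under 0.05. Ep300, a histone acetyltransferase that coactivates p53, had the lowest p of them, with a log2 difference of 1.04 (SE 0.497, edgeR adjusted p = 0.421). SS replicate 3 held 58.3 CPM of Ep300 against 25.2 CPM or less elsewhere, and leaving it out gave 0.23. Mdm4, the partner of Mdm2, stood at 19.1, 57.3 and 62.8 CPM in AS and 91.7, 40.1 and 66.1 CPM in SS, and overlapped. Among cell cycle targets outside the members, 0 of 4 tested were called by edgeR, DESeq2 or limma-voom, with 0 at an unadjusted p under 0.05.

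Among apoptosis targets outside the members, edgeR, DESeq2 and limma-voom called 0 of 9 tested, with 3 higher and 1 lower at an unadjusted p under 0.05. Apaf1, the scaffold of the apoptosome, stood at 1.96, 1.45 and 4.01 CPM in AS and 9.37, 7.90 and 7.90 CPM in SS. Its groups did not overlap, but its log2 difference of 1.72 (SE 0.458) missed the threshold (edgeR adjusted p = 0.135). Pmaip1, which encodes the BH3-only protein NOXA, and Tnfrsf10b, a death receptor, had log2 differences of 1.72 (SE 0.682) and 2.53 (SE 0.996) at levels below 4 CPM in every library. Leaving out AS replicate 3, after which 1 AS read remained, moved the value of Tnfrsf10b to 4.77, and leaving out SS replicate 2 moved it to 1.85. Perp, a junction protein, was lower in every SS library (79.9 to 89.5 CPM) than in any AS library (113 to 136 CPM), with a log2 difference of -0.59 (SE 0.223, edgeR adjusted p = 0.315).

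DNA repair targets had 0 of 8 called by edgeR, DESeq2 or limma-voom and 0 at an unadjusted p under 0.05. Polk, a translesion polymerase, had the lowest p of these (log2 difference 1.54, SE 0.729, edgeR adjusted p = 0.413). Ddb2, a damage recognition protein, lay between 14.4 and 16.2 CPM in AS and between 18.2 and 22.2 CPM in SS (log2 difference 0.39, SE 0.257), without overlap and without a call.

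Among 15 tested metabolic and stress targets, edgeR and DESeq2 called 1 higher and 0 lower, limma-voom called 0, and 1 was higher and 2 were lower at an unadjusted p under 0.05 in edgeR. Dcxr, a xylulose reductase, and Gls2, the liver glutaminase, were lower in every SS library, with log2 differences of -1.0 (SE 0.335) and -0.87 (SE 0.292) and edgeR adjusted p of 0.252 and 0.254. Without AS replicate 1 and SS replicate 3, Dcxr and Gls2 were called lower (edgeR adjusted p = 0.0281 and 0.00806).

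**Figure D2:**
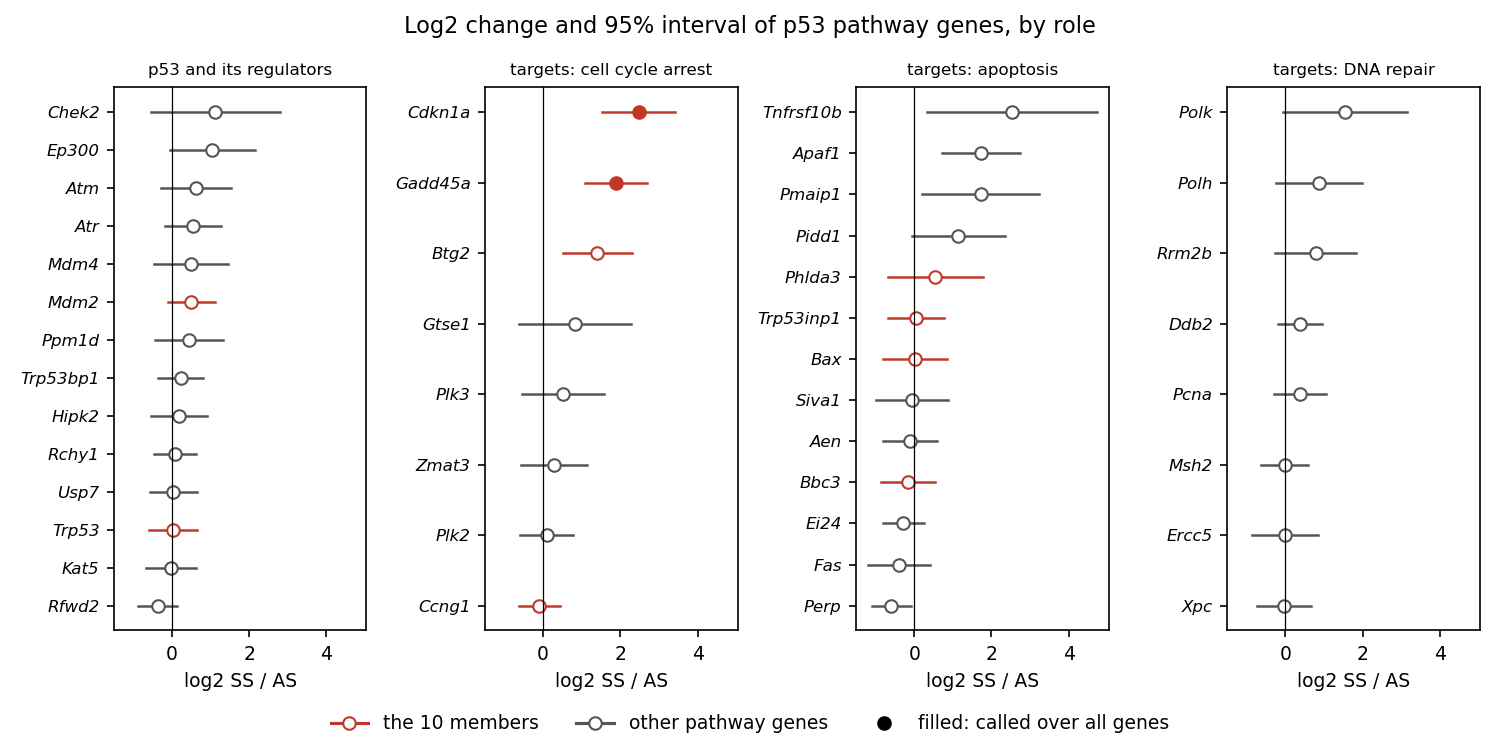
Log2 difference from AS to SS (horizontal axes) with its 95% interval for each tested p53 regulator and target of cell cycle arrest, apoptosis and DNA repair, in panels by role, members in red and other genes in grey, filled where called over all genes. Cdkn1a (2.47) and Gadd45a (1.89) are filled, while Trp53, Bax, Bbc3 and Ccng1 lie close to 0.

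The genes whose profile over the 6 libraries was nearest to that of Cdkn1a were found by the mean absolute difference of centred log2 CPM among 9821 genes of at least 5 CPM. They included Hba-x, an embryonic globin gene (difference 0.28), Cdca3, a cell division gene (0.31), and Gpx3, a secreted glutathione peroxidase (0.38). Hba-x stood at 8.18, 3.87 and 2.45 CPM in AS and 29.3, 55.3 and 34.5 CPM in SS, so that, as with Cdkn1a, AS replicate 1 was the highest AS library. The genes nearest to Gadd45a were Hip1, an endocytic adaptor (0.13), Tacc3, a spindle protein (0.13), Kif21b, a kinesin (0.18), and Plek, a platelet and leukocyte protein (0.20). Tacc3 stood at 1.5, 2.90 and 1.96 CPM in AS and 7.13, 11.2 and 9.47 CPM in SS, so it met the mean of 5 CPM through its SS values. These profiles contain the difference between genotypes on which Cdkn1a and Gadd45a were selected. Other genes higher in SS were therefore bound to be near them, and nothing is read from the likeness.

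Other stress pathways that share targets with p53 were read from lists of their own. In the integrated stress response, 2 of 11 tested genes were called higher. Atf3, a stress-induced transcription factor, stood at 1.04, 0.644 and 2.53 CPM in AS and 12, 31.0 and 6.42 CPM in SS, a log2 difference of 3.47 with an SE of 0.667 (edgeR adjusted p = 0.0444). Asns, asparagine synthetase, stood at 3.80, 4.03 and 3.43 CPM in AS and 7.79, 18.9 and 25.3 CPM in SS. The log2 difference was 2.21 with an SE of 0.439 (edgeR adjusted p = 0.0472). limma-voom called neither. Both edgeR calls ended in 5 of 6 fits without a library, and the log2 difference of Atf3 was 2.62 without SS replicate 2 and 4.24 without AS replicate 3. The list median was -0.04, and Atf4, Atf5, Trib3 and Chac1 had fitted values below 0 and were not called.

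Of 11 immediate early genes tested, edgeR and limma-voom called 0 and DESeq2 called Klf6, although all 11 had fitted values above 0, against 56.3% of all genes tested, and 4 were higher at an unadjusted p under 0.05. Klf6, a zinc finger factor, was nearest to the threshold, at 11.5, 11.8 and 16 CPM in AS and 28.9, 36.5 and 33.4 CPM in SS. The log2 difference of Klf6 was 1.33 with an SE of 0.269, and the adjusted p was 0.0514 in edgeR and 0.00445 in DESeq2.

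Markers of several other cell types were higher in SS than in AS, as Cdkn1a and Gadd45a were, and shared the library order of Cdkn1a in part. Summed stellate and fibroblast markers had that order in both genotypes. Erythroid and dividing cell sums had it in SS only, macrophage and neutrophil sums in AS only, and cholangiocyte sums in neither. Among SS libraries neutrophil sums were lowest in replicate 3, and among AS libraries erythroid sums were lowest in replicate 1. Cdkn1a was highest in both of these, within its genotype. Dividing cell sums, too, were lowest in AS replicate 1, as was Tk1, which made up much of them (36.6, 54.4 and 52.8 CPM in AS). There Mki67 was highest (5.41, 1.45 and 1.31 CPM) and Birc5 lowest (0.461, 3.87 and 1.31 CPM). Erythroid markers, of which 6 of 12 tested were called higher (Alas2, Cd24a and Slc4a1 among them), had a summed level of 53.9 to 71.3 CPM in AS and 296 to 570 CPM in SS, with Gata1 at 0 reads in AS. Klf1 of this list went the other way, with a log2 difference of -0.86 (SE 0.491), and was not called. Dividing cell markers, with 8 of 16 called higher (led by Cdc20, Mki67, Top2a and Ccnb2), summed to 71.9 to 80.8 CPM in AS and 167 to 283 CPM in SS. Tk1 of this list had a log2 difference of -0.11 (SE 0.267) and was not called. Macrophage markers, with 6 of 14 called (led by Gpnmb, Mmp12, Trem2 and Lgals3), summed to 459 to 548 CPM in AS and 597 to 1388 CPM in SS. Neutrophil markers, with Ngp and Mpo called of 7 tested, summed to 3.68 to 8.87 CPM in AS and 29.0 to 114 CPM in SS, with Elane and Ltf at 0 reads in AS. SS replicate 1 was the lowest SS library for erythroid, dividing cell and macrophage markers, as it was for Cdkn1a, Gadd45a and Btg2.

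Stellate and fibroblast markers (Lum and Col1a2 called of 10) summed to 381 to 444 CPM in AS and 502 to 763 CPM in SS, and cholangiocyte markers (Prom1 called of 7) to 105 to 119 CPM and 164 to 311 CPM. Lymphocyte and endothelial markers had 0 of 7 and 0 of 8 called by edgeR, with 2 higher at an unadjusted p under 0.05 in each, while DESeq2 called 2 endothelial markers, Lyve1 and Vwf. Their sums were 7.03 to 9.50 and 276 to 366 CPM in AS against 9.50 to 31.0 and 259 to 475 CPM in SS. Hepatocyte markers had 0 of 10 called by edgeR (1 lower at an unadjusted p under 0.05, and Cyp2e1 called lower by DESeq2), with sums of 95441 to 135598 CPM in AS and 77918 to 104633 CPM in SS. Of these 10, 1 had a fitted value above 0, against 56.3% of all genes tested, and their median log2 difference was -0.45. In RNA of whole liver, more cells of a type and more RNA per cell cannot be told apart, and the part of these cells in the levels of Cdkn1a and Gadd45a was not tested.

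**Figure D3:**
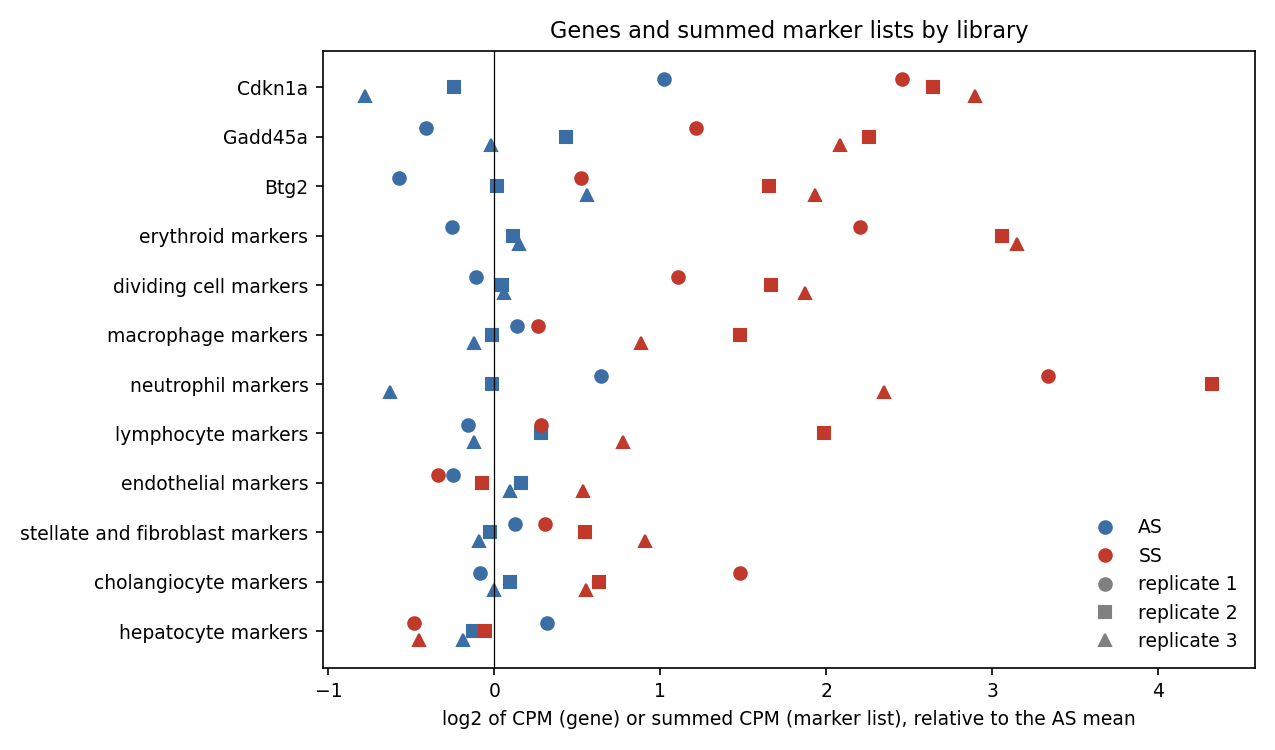
Log2 CPM of Cdkn1a, Gadd45a and Btg2 and log2 summed CPM of 9 marker lists (rows) in each library, relative to the AS mean on the horizontal axis, with AS in blue, SS in red and shape for the replicate number. SS points of Cdkn1a and Gadd45a lie to the right of all AS points. The same holds for erythroid, dividing cell, macrophage, neutrophil, stellate and fibroblast, and cholangiocyte markers. Btg2 and lymphocyte, endothelial and hepatocyte markers overlap.

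The differences in Cdkn1a and Gadd45a kept their direction in all 17 other settings, but whether they were called depended on the libraries and, for Gadd45a, on the tool. With all 6 libraries, limma-voom called Cdkn1a but not Gadd45a. These calls, too, come from the libraries on which the genes were selected and describe the fits only. Cdkn1a had log2 differences of 2.14 to 3.17 when each library was left out in turn, and its call held in 1 of these 6 fits, the one without AS replicate 1. Gadd45a had 1.67 to 2.14 and was called in 1, without SS replicate 1. With AS replicates 2 and 3 summed into 1 library, the log2 differences were 2.26 and 2.00, and neither gene was called. Without AS replicate 1 and SS replicate 3 they were 3.07 and 1.63, and both were called. Trp53 and Bax changed sign in 7 of 17 settings each, Trp53inp1 in 5, and Ccng1 and Bbc3 in 2 each.

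**Figure D4:**
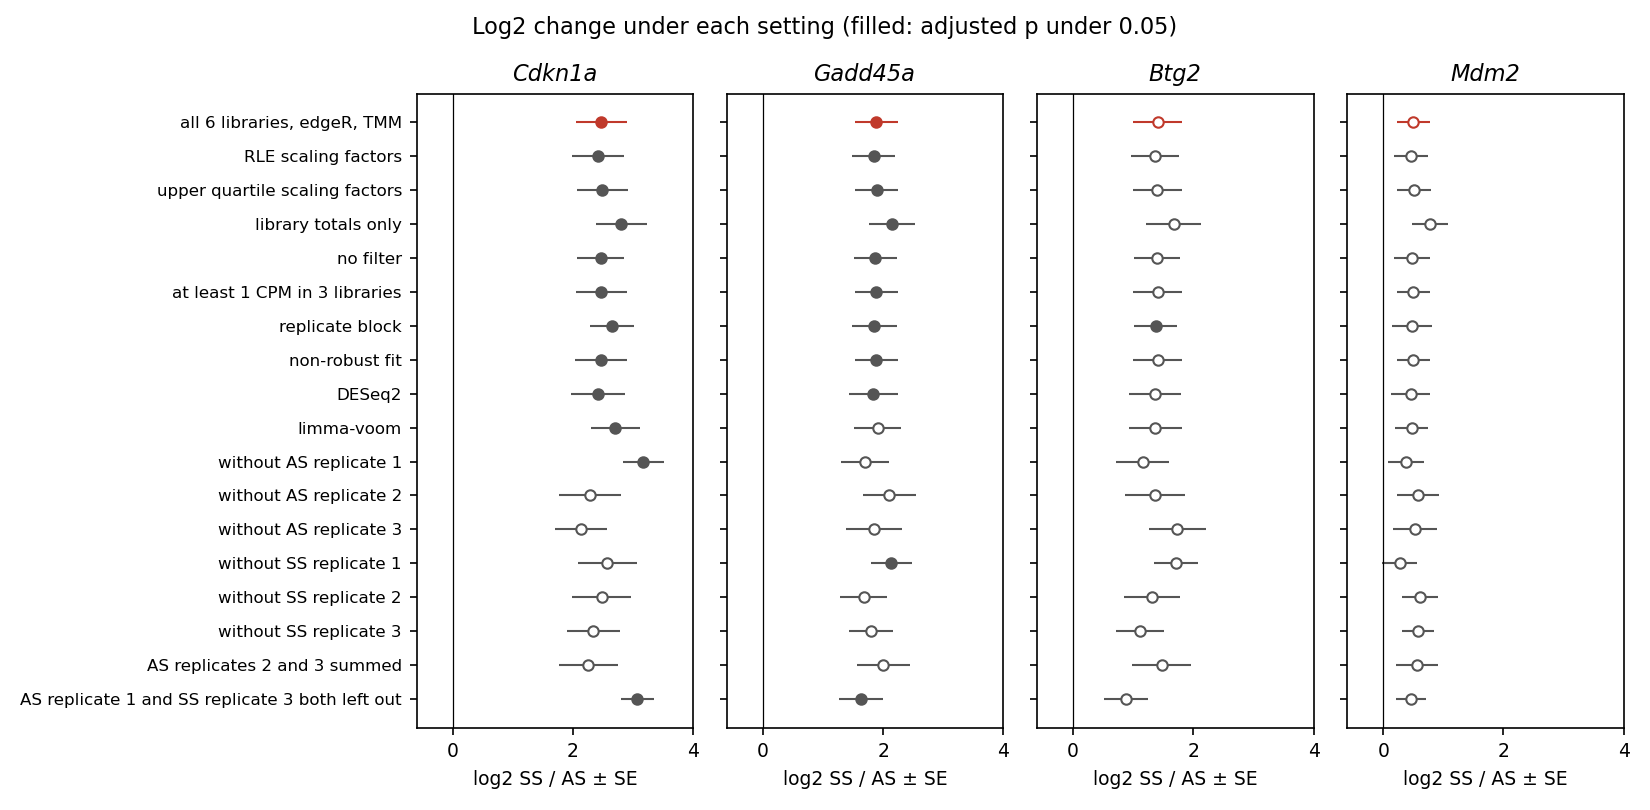
Log2 difference from AS to SS ± SE (horizontal axes) of Cdkn1a, Gadd45a, Btg2 and Mdm2 under the setting used throughout (red) and 17 alternatives (grey), filled where the adjusted p was under 0.05. All points lie above 0, with Cdkn1a between 2.14 and 3.17 and Mdm2 between 0.27 and 0.77.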

How the data were processed

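Total RNA from liver was sequenced in 6 libraries, 3 AS and 3 SS. The authors deposited raw counts per gene symbol, made with HISAT2 on mm10 and HTSeq per the submitters' processing notes. The tool versions, the annotation and the strand setting are not given in the sources used here. Counter lines that name no gene (66.6% to 78.5% of records) were left out of library sizes and tests. Reads carry no molecular identifiers, so counting intervals cover counting error only.

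The genotypes were compared with edgeR 4.0.16 (R 4.3.3), using filterByExpr (minimum count 10), TMM factors and a robust quasi-likelihood fit, two-sided, with Benjamini-Hochberg adjustment over 12622 genes and a threshold of 0.05. The SE is the log2 change divided by the root of its F statistic. Tested on simulated counts of 12622 genes with 200 changed, the fit recovered 8.33% of 2-fold changes and 67.0% of 4-fold changes. Alternatives were other scaling factors and filters, a replicate block, a non-robust fit, DESeq2 1.42.0, limma-voom (limma 3.58.1) and libraries left out or summed.

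Members, lists and alternatives were chosen with earlier results of these data known. The text names all members, called genes of each list (up to 4) or else its gene of lowest p, relatives of Cdkn1a, Gadd45a and Bax, and the 4 genes nearest in profile to Cdkn1a and to Gadd45a, except a few genes that are not reported here. Cdkn2c, Mdm4, Ddb2, Pmaip1, Tnfrsf10b, Perp, Dcxr, Gls2, Lpin1, Ddit4, Atf4, Atf5, Trib3, Chac1, Klf1, Tk1, Birc5, Lyve1, Vwf and Cyp2e1 were named after their values were seen. Coordinates and exon lengths came from GENCODE M21.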

Additional observations from a re-analysis of the deposited data

How the results depend on the processing

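Over all genes, 115 were called higher and 7 lower. The counts were 188 and 29 with no filter, 276 and 93 in DESeq2, 30 and 1 in limma-voom, 31 and 0 with AS replicates 2 and 3 summed, and 346 and 316 without AS replicate 1 and SS replicate 3. Upper quartile factors left 4 lower calls and library totals alone 1. Library totals alone moved the median log2 change of all genes from 0.08 to 0.36. Leaving out 1 library gave 22 to 85 genes called higher and 0 to 15 lower.

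Of the p53 pathway genes outside the members, 1 was called higher and 0 lower. This became 0 higher in limma-voom, with AS replicates 2 and 3 summed, and without AS replicate 1 and SS replicate 3, where 2 were lower, and ranged from 0 to 1 higher and 0 to 0 lower without single libraries. Of the members, 2 were called higher. This became 1 in limma-voom (Cdkn1a) and 0 with AS replicates 2 and 3 summed, and ranged from 0 to 1 without single libraries. The causes were not tested. Bok had log2 differences of -0.0016 (without SS replicate 2) to 0.63 (without SS replicate 3).

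Replicate numbers are shared by the genotypes, but same-numbered libraries did not deviate together over genes (correlations of 0.050, -0.120 and 0.193), so they were not treated as pairs. With a replicate block, 367 genes were called higher and 93 lower, 2 pathway genes outside the members higher, Apaf1 among them (edgeR adjusted p = 0.0224), and 1 lower, Dcxr (0.0254). Btg2 was called beside Cdkn1a and Gadd45a. At 3 libraries per genotype a 2-fold change was seldom found in simulation, so an uncalled member is not shown to be equal between genotypes.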
